A study of Mus musculus with 4 samples.

Results

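The genes described here are 10 genes of interleukin-6 (IL-6) family signalling and of the acute phase response, measured in mouse kidney at day 3 after ischemia-reperfusion injury (I/R). They are Il6st, Osmr and Lifr, which encode signalling receptors, Stat3, Socs3 and Cebpd, which encode intracellular regulators, and Saa3, Hp, Lbp and Orm1, which encode acute phase proteins. They were taken by gene name from a table of 54078 features, and each name matched a single gene. RNA-sequencing covered 4 libraries of kidney RNA, 2 from WT and 2 from tubule-specific Apela knockout (KO) mice, and each library was a pool of RNA from 3 mice, so n = 2 counts pools. All mice were adult males, labelled as C57BL/6 x 129S4/SvJae, while the methods of the study name C57BL/6, and in all of them both kidneys were clamped for 30 min. KO mice carried floxed Apela alleles with Ksp-Cre, whose Ksp-cadherin promoter acts in renal tubular epithelial cells, and WT mice were flox/flox littermates without Cre. No uninjured kidney was sequenced in these libraries, so the values compare genotypes after injury and do not give the effect of injury itself. Adipose tissue is named in the design text of the series, whereas its title and sample labels name the kidney.

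Cytokines of the IL-6 family, such as IL-6, IL-11, leukemia inhibitory factor and oncostatin M, all signal through gp130, the product of Il6st, which pairs with a ligand-binding chain or with a partner chain such as LIFR or OSMR. The engaged receptor activates JAK kinases, which phosphorylate STAT3, and STAT3 then induces target genes that include its own feedback inhibitor Socs3 and the transcription factor Cebpd. In the liver, this pathway, together with C/EBP factors, drives the synthesis of acute phase proteins, plasma proteins that change with inflammation, and injured kidney tubules can also produce some of them.

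Promoter windows from RefSeq on GRCm38.p6, of 250 bases before and 50 bases after a gene's start, were held for 6 of the 10 genes, namely Il6st, Osmr, Lifr, Stat3, Socs3 and Saa3, with 7 windows in all. Both strands were searched for 8 patterns, among them TTCNNNGAA, the usual form of a STAT site, and TTGCNNAA, a core of C/EBP sites. Within these windows, TTCNNNGAA was found in Socs3 alone and TTGCNNAA in Saa3 alone. Of all 32851 windows of the same length, 8.30% held TTCNNNGAA and 10.8% held TTGCNNAA, so neither is rare. The matches are shown with their flanks because STAT3 and C/EBP factors are the regulators measured here, with the match in capitals and each sequence read 5′ to 3′ on the strand of the gene.
Socs3, chr11:117969501-117969530, minus strand: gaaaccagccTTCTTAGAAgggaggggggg
Saa3, chr7:46715757-46715786, minus strand: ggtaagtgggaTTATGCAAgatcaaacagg
The Socs3 match begins 154 bases before the RefSeq start, inside the annotated gene but in no exon of GENCODE M21, and it fits the pattern on both strands. The Saa3 match begins 99 bases before the start, also outside exons, and fits the pattern on the opposite strand.

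Il6st and Stat3 were the most abundant of the 10 genes, and the 250 bases before their RefSeq starts overlapped none of their GENCODE M21 exons. They are printed here as the upstream sequence of the shared receptor and of the transcription factor below it. Capitals mark CCAAT, or ATTGG where it lies on the opposite strand, a pattern held by 37.4% of all windows. The stretch of Il6st has 2 such matches and that of Stat3 has 1. The 6-base pattern GGGCGG, bound by Sp1 and held by 35.7% of all windows, was present once in each of these stretches on either strand and is not marked.
Il6st, chr13:112463820-112464069, plus strand: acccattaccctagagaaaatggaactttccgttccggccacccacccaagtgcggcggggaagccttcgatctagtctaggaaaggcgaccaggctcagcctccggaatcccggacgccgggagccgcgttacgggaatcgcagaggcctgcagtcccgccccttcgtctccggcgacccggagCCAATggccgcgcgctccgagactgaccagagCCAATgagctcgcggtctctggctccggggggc
Stat3, chr11:100939541-100939790, minus strand: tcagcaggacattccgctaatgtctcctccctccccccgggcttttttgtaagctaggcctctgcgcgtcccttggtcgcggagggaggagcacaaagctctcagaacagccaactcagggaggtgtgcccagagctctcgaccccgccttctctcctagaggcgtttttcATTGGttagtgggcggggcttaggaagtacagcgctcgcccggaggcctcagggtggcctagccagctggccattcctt
A match describes the letters of a window, and no binding was measured.

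The libraries held 16045724 to 16927742 reads on genes, recovered from the deposited FPKM (fragments per kilobase of gene, scaled to a total per library). FPKM allows levels to be compared between genes. The scaling total was not the count of reads on genes. It was 16071739 against 16290098 reads in WT replicate 1, and 17203609 against 16045724 in WT replicate 2. In KO replicate 1 it was 16727839 against 16927742 reads, and in KO replicate 2 it was 16237848 against 16772105. For the targeted gene Apela, the FPKM was 5.27 and 4.57 across WT pools, against 0.536 and 0.245 across KO pools, which matches the labels. Its log2 fold change of -2.62 (standard error 0.22) had an adjusted p of 0.466 (limma), the smallest in the table, so the threshold was not reached even for the deleted gene. Nephron markers such as Umod (788 to 1133 FPKM) and Slc34a1 (365 to 898 FPKM) were high in every pool. Of 6 adipocyte markers, Ucp1 had no read in any pool, Lep and Retn had at most 2 reads, and Adipoq had no read in 3 pools and 6 reads in KO replicate 2. Cidec, with 41 and 9 reads in WT and 246 and 84 in KO, and Plin1, with 4 and 1 reads in WT and 27 and 9 in KO, were detected and were higher in both KO pools, Cidec by a log2 fold change of 2.12 (adjusted p = 0.785, limma) and Plin1 under the filter. Their part in the values of the 10 genes was not tested. Pools of a group differed far more than sampling noise allows, the chi-square per gene being 31.5 for WT and 24.5 for KO. Nothing in the labels ties a WT pool to a KO pool beyond a shared replicate number. In whole-tissue RNA, fewer cells of a type and less RNA per cell cannot be told apart.

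The comparison of KO with WT pools asks which pathways differ in injured kidneys that lack tubular Apela. Of the 10 genes, 8 had a mean FPKM of at least 0.5 and were tested with limma on log2(FPKM + 0.5), with Benjamini-Hochberg adjustment over all 15414 genes tested. None of the 8 had an adjusted p-value under 0.05, nor did any gene of the table (0%). The adjusted p-values of the 8 genes lay between 0.785 and 0.952 (limma). At an unadjusted p under 0.05 there was 1 of the 8 genes, Il6st, against 974 of all tested genes (6.32%, with 3.29% higher and 3.03% lower in KO), and a limma fit with voom weights, run on recovered reads, also gave 0 genes past the threshold. In 5 of the 8 genes the FPKM of the KO pools lay entirely on one side of the WT pools. They were below them in Il6st, Osmr, Cebpd and Lbp and above them in Stat3. Over all tested genes this was so for 37.8%, with the KO pools above in 19.7% and below in 18.1%. The median log2 fold change was -0.26 over the 8 genes and 0.0071 over all tested genes. The former moved to -0.074 without KO replicate 2 and to -0.44 without KO replicate 1. With 2 pools on each side, the smallest two-sided p of an exact permutation test is 0.333, and every gene is therefore described by its value in each pool, with replicate 1 of a group given before replicate 2.

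**Figure D1:**
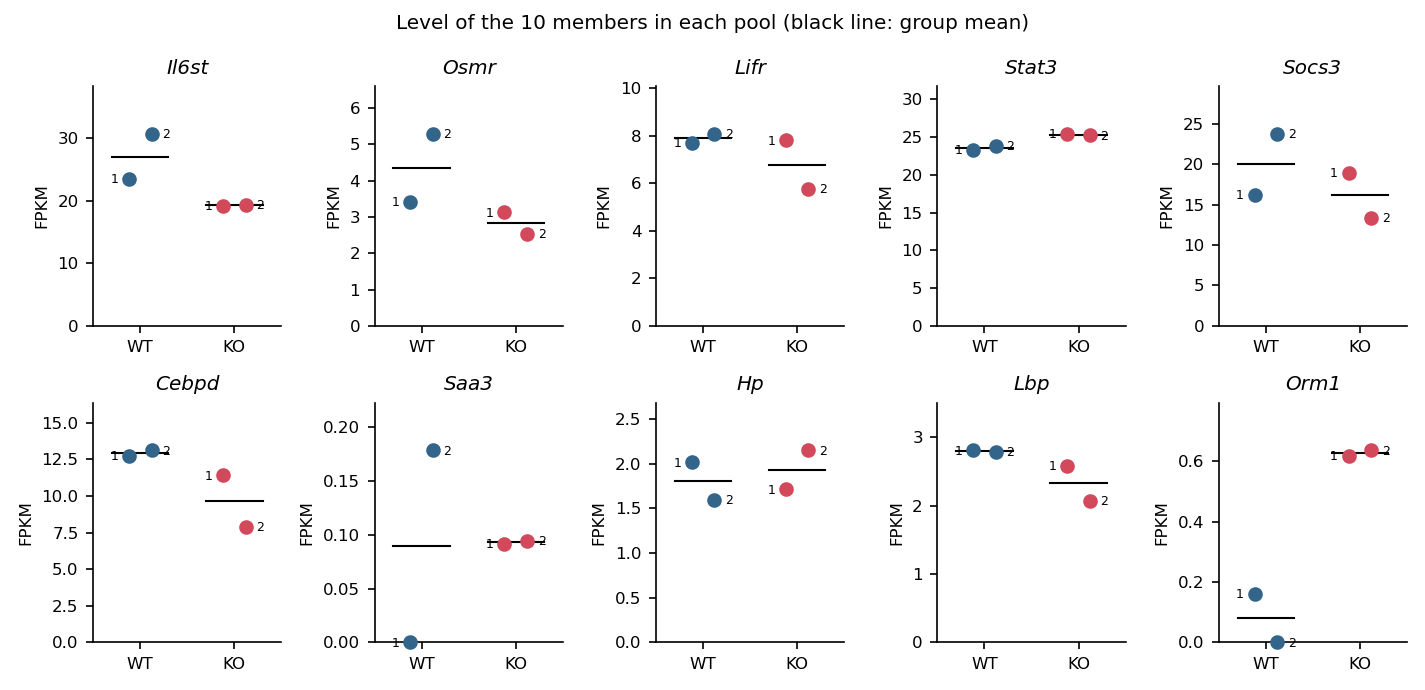
FPKM (vertical axis, linear from 0, a scale of its own per panel) of the 10 genes in the 2 WT pools (blue) and the 2 KO pools (red), with numbers giving the replicate and black lines the group means. The pools do not overlap for Il6st, Osmr, Cebpd, Lbp, Stat3 and the barely detected Orm1, and they overlap for Lifr, Socs3, Hp and Saa3.

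Il6st (ENSMUSG00000021756; chr13:112464070-112510086 of GRCm38, plus strand) encodes gp130, the receptor chain shared by the whole cytokine family. Its FPKM was 23.4 and 30.7 across WT pools, against 19.2 and 19.4 across KO pools. Both KO pools were thus below both WT pools, and they lay close together, whereas the WT pools differed by more than the KO pools did. Mean FPKM was 27.0 ± 5.11 in WT and 19.3 ± 0.119 in KO mice (± SD, n = 2 pools each), a ratio of 0.713. Compared with WT, the log2 fold change of Il6st was -0.47 (standard error 0.16, 95% interval -0.89 to -0.037, adjusted p = 0.785, limma), so the difference did not pass the threshold over all genes. It was -0.27 without WT replicate 2, the pool with the highest value, and between -0.46 and -0.66 without each of the other pools in turn.

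Osmr (ENSMUSG00000022146; chr15:6813577-6874969, minus strand) encodes the chain that pairs with gp130 to form the receptor of oncostatin M. Its FPKM was 3.41 and 5.29 across WT pools, against 3.13 and 2.54 across KO pools. The groups did not overlap, but WT replicate 1 was close to KO replicate 1 and WT replicate 2 was well above the other pools. Mean FPKM was 4.35 ± 1.33 in WT and 2.84 ± 0.415 in KO mice (± SD, n = 2 pools each). Osmr had a log2 fold change of -0.52 (standard error 0.24, 95% interval -1.14 to 0.10, adjusted p = 0.797, limma). Without WT replicate 2 it was -0.24, and without WT replicate 1 it was -0.80.

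Lifr (ENSMUSG00000054263; chr15:7090614-7197489, plus strand) encodes the receptor chain of leukemia inhibitory factor, which also serves cardiotrophin-1 and ciliary neurotrophic factor. It lies 215.6 kb from Osmr. Its FPKM was 7.70 and 8.08 across WT pools, against 7.81 and 5.75 across KO pools, so that only KO replicate 2 was below the others. The log2 fold change of -0.22 (95% interval -0.67 to 0.24, adjusted p = 0.840, limma) came to -0.014 without that pool. Within a library, the FPKM of Osmr was between 0.131 and 0.172 times that of Il6st, and that of Lifr between 0.263 and 0.407 times, and for both ratios the WT and KO pools overlapped. The shared chain was therefore more abundant than either partner chain in every pool.

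Stat3 (ENSMUSG00000004040; chr11:100885098-100939540, minus strand) encodes the main transcription factor of the pathway. It was the most even of the 10 genes, with an FPKM of 23.3 and 23.9 across WT pools, against 25.4 and 25.2 across KO pools, and its highest value was 1.09 times its lowest. The KO values exceeded both WT values in FPKM, by a small margin. In reads, before scaling, it had 3561 and 3911 across WT pools, against 4049 and 3901 across KO pools, which overlapped. The separation in FPKM therefore depends on the scaling totals. Under quantile normalization the log2 fold change was 0.052. Mean FPKM was 23.6 ± 0.428 in WT and 25.3 ± 0.134 in KO mice (± SD, n = 2 pools each), giving a log2 fold change of 0.10 (standard error 0.10, 95% interval -0.17 to 0.38, adjusted p = 0.870, limma). Transcript levels do not show whether STAT3 protein was phosphorylated, which is the active form.

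Socs3 (ENSMUSG00000053113; chr11:117966079-117970047, minus strand) encodes the feedback inhibitor that binds gp130 and JAK kinases and is itself a STAT3 target, and its STAT pattern is shown above. Its FPKM was 16.2 and 23.7 across WT pools, against 19.0 and 13.4 across KO pools. The groups overlapped, with the highest value in WT replicate 2 and the lowest in KO replicate 2. Mean FPKM was 20.0 ± 5.30 in WT and 16.2 ± 3.95 in KO mice (± SD, n = 2 pools each). For Socs3, the log2 fold change came to -0.29 (standard error 0.26, 95% interval -0.98 to 0.39, adjusted p = 0.854, limma), and it was -0.026 without WT replicate 2 and -0.049 without KO replicate 2. Relative to Stat3 in the same library, the FPKM of Socs3 was 0.698 and 0.994 times as high across WT pools, against 0.746 and 0.531 times across KO pools, so that this ratio also overlapped between groups.

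Cebpd (ENSMUSG00000071637; chr16:15887286-15891031, plus strand) encodes C/EBP delta, a transcription factor that IL-6 family cytokines induce and that acts on acute phase genes. Its FPKM was 12.7 and 13.1 across WT pools, against 11.4 and 7.86 across KO pools. The WT pools were nearly equal, both KO pools were below them, and KO replicate 2 was the lowest by a wide margin. Mean FPKM was 12.9 ± 0.264 in WT and 9.63 ± 2.50 in KO mice (± SD, n = 2 pools each), with a log2 fold change of -0.43 (standard error 0.20, 95% interval -0.95 to 0.091, adjusted p = 0.797, limma). Leaving out KO replicate 2 gave -0.17, and leaving out KO replicate 1 gave -0.68.

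**Figure D2:**
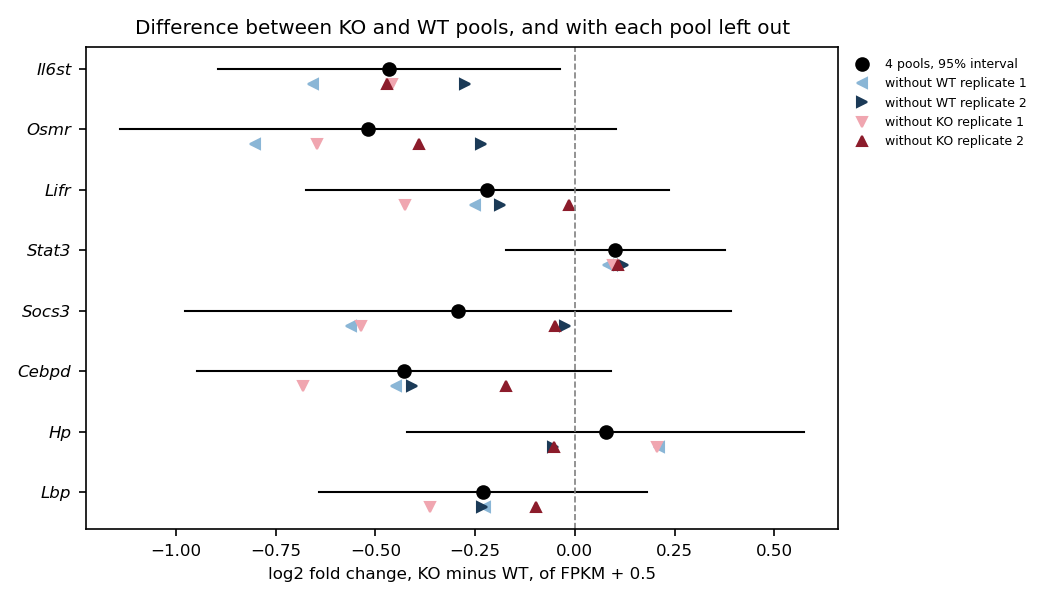
Log2 fold change of KO against WT on the scale of log2(FPKM + 0.5) (horizontal axis) for the 8 tested genes. Black points and lines give the fit on 4 pools with its 95% interval, and triangles give the value with 1 pool left out. The interval of 7 of the 8 genes holds 0, that of Il6st does not, and Hp has values on both sides of 0 when a pool is left out.

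The 4 acute phase genes among the 10 had a mean FPKM under 3. Lbp (ENSMUSG00000016024; chr2:158306493-158332852, plus strand) encodes lipopolysaccharide-binding protein, which hands bacterial lipopolysaccharide to CD14. Its FPKM was 2.81 and 2.79 across WT pools, against 2.59 and 2.07 across KO pools, with 162 to 232 reads per pool. The KO pools were below the WT pools without overlap, KO replicate 1 by little. Lbp had a log2 fold change of -0.23 (standard error 0.16, 95% interval -0.64 to 0.18, adjusted p = 0.823, limma), and -0.096 without KO replicate 2.

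Hp (ENSMUSG00000031722; chr8:109575128-109579172, minus strand) encodes haptoglobin, which binds free hemoglobin. Its FPKM was 2.01 and 1.59 across WT pools, against 1.71 and 2.15 across KO pools, from 44 to 56 reads per pool, and the groups overlapped. For Hp, the log2 fold change came to 0.077 (standard error 0.19, 95% interval -0.42 to 0.57, adjusted p = 0.952, limma), and its sign depended on the pools included, with -0.055 without WT replicate 2 and -0.052 without KO replicate 2.

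Orm1 (ENSMUSG00000039196; chr4:63344560-63348163, plus strand) encodes alpha-1-acid glycoprotein, a plasma carrier protein. It was under the filter and was not tested. Its FPKM was 0.161 in WT replicate 1, with 2 reads, and listed at 0 in WT replicate 2, where 3 reads would have been 0.225 FPKM, and it was 0.617 and 0.636 in the KO pools, with 8 reads each. The KO pools were both above the WT pools, at the limit of detection. Over the group, 16 reads in KO against 2 in WT gave a ratio of 8.08 after scaling by the totals of the FPKM. Its exact 95% interval of 1.90 to 72.4 covers counting error only. Its paralogs Orm2 (1 and 3 reads in WT, 13 and 3 in KO) and Orm3 (2 reads in KO replicate 1, otherwise none) are near-identical copies, and how reads fitting several copies were counted is not given in the sources used here, so the split among these genes is uncertain.

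Saa3 (ENSMUSG00000040026; chr7:46711998-46715700, minus strand) encodes serum amyloid A3, the amyloid A form made mainly outside the liver, and its C/EBP pattern is shown above. It had 0 and 8 reads across WT pools and 4 reads in each KO pool, or 0 and 0.178 FPKM against 0.0918 and 0.0945 FPKM. The values overlapped, and the ratio of KO to WT reads after scaling was 1.01 with an exact 95% interval of 0.330 to 3.09 from counting error alone. No difference was detectable at this depth. Saa1 had 50 and 42 reads across WT pools, against 81 and 11 across KO pools, and Saa2 at most 3 reads in any pool. How reads fitting more than 1 gene of this family were counted is not given in the sources used here, and their sequences were not compared.

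Ordered by the mean FPKM of all 4 pools, the genes ran from Stat3 (24.4), Il6st (23.2), Socs3 (18.1), Cebpd (11.3), Lifr (7.33), Osmr (3.59), Lbp (2.56) and Hp (1.87) to Orm1 (0.353) and Saa3 (0.0912). Between neighbours in this order, the ranges over the pools were separate for Socs3 and Cebpd, for Lifr and Osmr, and for Hp and Orm1, and they overlapped for the other 6 pairs. The receptors and regulators thus had a higher FPKM than the 4 acute phase genes, apart from Osmr, whose lowest pool (2.54 FPKM) was under the highest of Lbp (2.81 FPKM).

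Other genes of the pathway were read from the same fit in lists of 65 genes, of which 48 passed the filter. None had an adjusted p-value under 0.05 (limma; 0.613 to 1.00), 5 had an unadjusted p under 0.05 (10.4%, against 6.32% of all tested genes), and 11 had no overlap of the pools (22.9%, against 37.8%), 6 with KO above and 5 with KO below. Their median log2 fold change was -0.12, and it ran from -0.18 without WT replicate 1 to 0.018 without WT replicate 2. The medians of the single lists below also depended on the pools included, and each is given with its lowest and highest value when a pool was left out, an alternative chosen after seeing the data.

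Most ligands had few reads. Of the 9 listed, 4 passed the filter, and their median log2 fold change was -0.22 (-0.46 without WT replicate 1 to 0.081 without WT replicate 2). Lif, leukemia inhibitory factor, had the highest mean, with an FPKM of 3.38 and 5.63 across WT pools, against 4.27 and 3.47 across KO pools, which overlapped. Ctf1, cardiotrophin-1, had an FPKM of 3.85 and 3.60 across WT pools, against 4.79 and 3.95 across KO pools, and was the ligand without overlap (log2 fold change 0.20, adjusted p = 0.828, limma). Il6 itself had 3 reads in each WT pool and 1 and 3 reads in the KO pools, and Osm, Clcf1, Cntf and Il27 were also under the filter. Oncostatin M transcripts (Osm) numbered 1 and 8 reads across WT pools and 6 and 8 reads across KO pools, while its receptor chain Osmr had 500 to 1102 reads per pool.

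Another 4 ligand-binding receptor chains were tested, with a median log2 fold change of -0.15 (-0.23 without WT replicate 1 to -0.091 without WT replicate 2), and none had an unadjusted p under 0.05. Il11ra1, which binds IL-11, was the highest of the 4, with an FPKM of 11.4 and 12.1 across WT pools, against 10.5 and 13.0 across KO pools, which overlapped. Il6ra, the IL-6 binding chain, had an FPKM of 1.05 and 1.41 across WT pools, against 1.27 and 1.14 across KO pools, which also overlapped.

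The 4 genes of kinases and of the phosphatase SHP2 had a median log2 fold change of 0.066 (-0.045 without KO replicate 1 to 0.083 without WT replicate 2). Jak1, the kinase most tied to gp130 and the highest of this list, had an FPKM of 27.9 and 32.4 across WT pools, against 26.5 and 26.8 across KO pools, with a log2 fold change of -0.17 (adjusted p = 0.829, limma). Among the 6 other negative regulators the median was -0.19 (-0.37 without KO replicate 1 to -0.056 without KO replicate 2), and 5 of the 6 were below 0, against 48.6% of all tested genes, but 3 of the 6 without WT replicate 2. Cish, a SOCS family member induced mainly through STAT5, had an FPKM of 7.72 and 6.10 across WT pools, against 4.77 and 5.25 across KO pools, a log2 fold change of -0.42 (95% interval -0.83 to -0.012, adjusted p = 0.785, limma). Ptpn6, the highest of these, had an FPKM of 10.5 and 14.4 across WT pools, against 10.5 and 11.6 across KO pools.

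Of 13 genes listed as STAT3 targets or as transcription factors that act with it, 2 had an unadjusted p under 0.05 with higher and 1 with lower values in the KO pools, against 3.29% and 3.03% of all tested genes, and the median log2 fold change was -0.038 (-0.25 without WT replicate 1 to 0.15 without WT replicate 2). Bcl2l1, which encodes the survival protein BCL-XL, had an FPKM of 38.6 and 39.3 across WT pools, against 52.1 and 55.9 across KO pools (log2 fold change 0.46, standard error 0.11, adjusted p = 0.742, limma). Pim1, a survival kinase, had an FPKM of 4.20 and 4.85 across WT pools, against 6.50 and 6.56 across KO pools (log2 fold change 0.49, standard error 0.12, adjusted p = 0.757, limma). Irf1, a transcription factor that responds mostly to interferon, had an FPKM of 8.95 and 13.4 across WT pools, against 6.34 and 4.89 across KO pools (log2 fold change -0.92, standard error 0.24, adjusted p = 0.757, limma). The pools of these 3 genes did not overlap (23.1% of the list, against 37.8% of all tested genes), and none passed the threshold over all genes. Pim3, the highest of the list, had an FPKM of 133 and 94.3 across WT pools, against 131 and 125 across KO pools, which overlapped.

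The 3 other C/EBP factors had a median log2 fold change of 0.0048 (-0.12 without KO replicate 1 to 0.24 without KO replicate 2). Among them, Cebpb was higher than Cebpd, with an FPKM of 43.6 and 47.5 across WT pools, against 78.4 and 49.5 across KO pools. Its KO pools were above the WT pools while those of Cebpd were below, with log2 fold changes of 0.45 and -0.43 (adjusted p = 0.798 and 0.797, limma), and the difference between these genes was not tested.

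Of 21 other positive acute phase genes, 11 passed the filter, and 10 of the 11 had a log2 fold change below 0, against 48.6% of all tested genes, with a median of -0.16. Without KO replicate 2, 4 of the 11 were below 0 (36.4%, against 48.9% of all tested genes) and the median was 0.18, while it was -0.71 without KO replicate 1, and 6 of the 11 were below 0 without WT replicate 1, so the count rested on the pools included. The pools did not overlap in 1 of the 11 tested genes (9.09%, against 37.8% of all tested genes). This gene was Lcn2, which encodes NGAL, an iron-siderophore carrier and a marker of tubular injury. Its FPKM was 133 and 95.2 across WT pools, against 249 and 273 across KO pools, a log2 fold change of 1.21 (standard error 0.21, 95% interval 0.65 to 1.77, adjusted p = 0.613, limma). The 3 genes with the lowest log2 fold changes of the list, C3, Cp and Fgb, and the other fibrinogen chains were chosen after their values were seen. C3, complement component 3, had an FPKM of 155 and 223 across WT pools, against 210 and 33.2 across KO pools. The fibrinogen chain Fgb had 9.98 and 10.1 FPKM across WT pools, against 11.0 and 3.12 FPKM across KO pools, and ceruloplasmin (Cp) 20.4 and 29.1 against 21.5 and 8.55 FPKM. In these 3 genes KO replicate 1 was at or near the level of the WT pools and KO replicate 2 was far below. The more abundant chains Fga, with 97.9 and 69.8 FPKM in WT and 136 and 50.3 FPKM in KO, and Fgg, with 102 and 72.0 FPKM in WT and 133 and 50.4 FPKM in KO, were also lowest in KO replicate 2 but had their highest value in KO replicate 1, and their log2 fold changes were -0.0013 and -0.065. Of the list, 9 of the 11 tested genes had a higher FPKM in KO replicate 1 than in KO replicate 2. The like share of all tested genes was not computed, so nothing is read from this count. The 10 genes under the filter were Saa2, Saa4, Orm2, Orm3, Crp, Hpx, Serpina3m, Itih4, Hamp and A2m.

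The 5 negative acute phase genes, whose plasma proteins fall during inflammation, gave 3 tested genes with a median of -0.043 (-0.34 without KO replicate 2 to 0.16 without WT replicate 1), while Ahsg and Rbp4 were under the filter. Ttr, transthyretin, had an FPKM of 49.2 and 42.3 across WT pools, against 24.3 and 50.8 across KO pools, which overlapped.

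**Figure D3:**
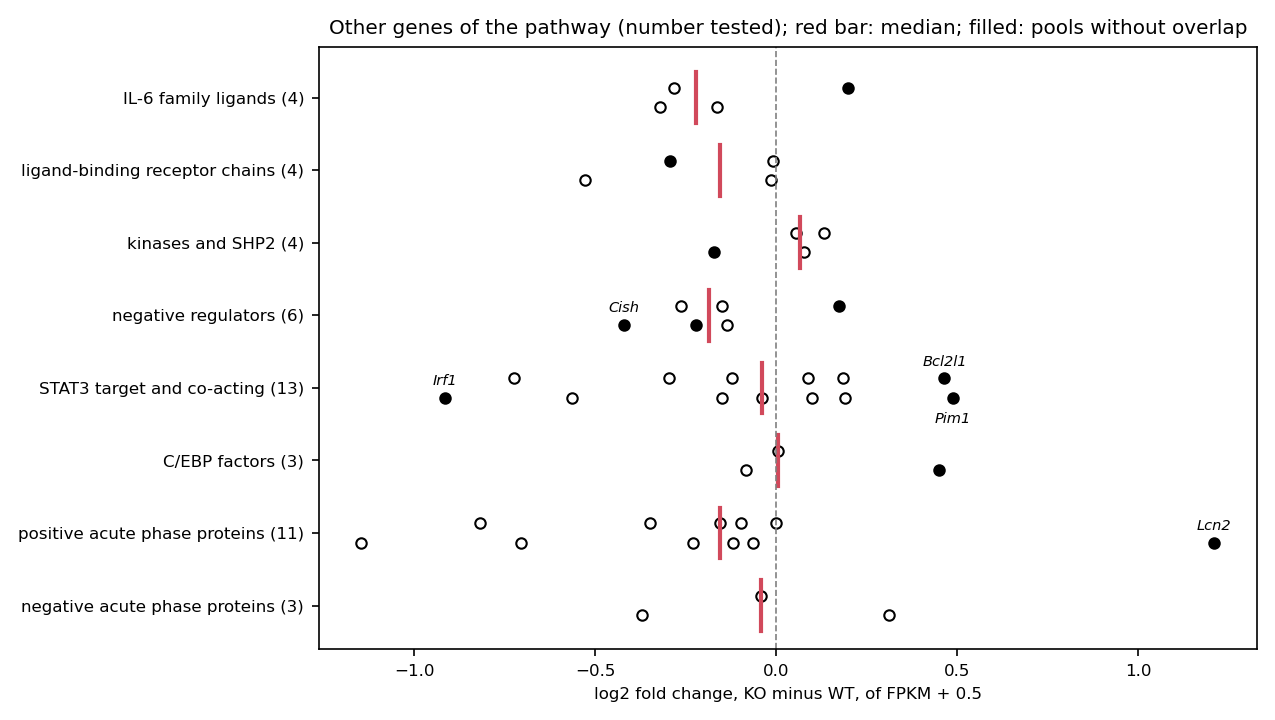
Log2 fold change of KO against WT on the scale of log2(FPKM + 0.5) (horizontal axis) for the 48 tested genes of the other pathway lists, with the number tested per list in parentheses. Filled circles are genes whose pools do not overlap, red bars are list medians, and names mark the 5 genes with an unadjusted p under 0.05. Lcn2 (1.21) lies farthest to the right, and the list medians on all 4 pools lie between -0.22 and 0.066, though they move from -0.71 to 0.24 when a pool is left out.

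High and low values often fell in the same pools. Of the 8 tested genes, 5 (Il6st, Osmr, Lifr, Socs3 and Cebpd) were highest in WT replicate 2, against 29.1% of all tested genes, and 5 (Osmr, Lifr, Socs3, Cebpd and Lbp) were lowest in KO replicate 2, against 23.7%. For 4 genes, Osmr, Lifr, Socs3 and Cebpd, the highest and the lowest values were in these same pools, against 11.1% of all tested genes. These counts describe the pools and were not tested.

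Markers of other cell types also varied by pool. The summed FPKM of 12 macrophage markers was 189 and 468 across WT pools, against 231 and 223 across KO pools. Of the 12, 9 (75%, against 29.1% of all tested genes) were highest in WT replicate 2, the pool with the highest Il6st, Osmr and Socs3. The sum of 7 fibroblast markers was 116 and 234 across WT pools, against 141 and 157 across KO pools. It was again highest in WT replicate 2, as were 6 of the 7 genes (85.7%, against 29.1% of all tested genes). Like Il6st, Osmr, Cebpd and Lbp, 3 macrophage markers (C1qb, C1qc and Cx3cr1; 25%, against 18.1% of all tested genes) and 2 fibroblast markers (Dcn and Lum; 28.6%) were lower in both KO pools, with log2 fold changes of -0.87 to -0.67 and adjusted p-values of 0.785 to 0.798 (limma), while the macrophage marker Cd163 was higher in both. The part of these cells in the values of the 10 genes was not tested. Without WT replicate 2 the log2 fold changes of Il6st, Osmr and Socs3 were -0.27, -0.24 and -0.026, against -0.47, -0.52 and -0.29 with all pools. Those of Cebpd, Lbp and Lifr moved less, from -0.43, -0.23 and -0.22 to -0.41, -0.23 and -0.19. That of Stat3 went from 0.10 to 0.12, and that of Hp from 0.077 to -0.055. The sum of 10 neutrophil markers, a cell type that can carry haptoglobin, was 11.5 and 23.1 across WT pools, against 12.4 and 30.0 across KO pools, with Ly6g and Camp at 0 reads in every pool. Hp was highest in KO replicate 2, which had the highest neutrophil sum, and lowest in WT replicate 2, which had the next highest, and the part of neutrophils in the values of Hp was not tested.

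The 7 hepatocyte markers had a summed FPKM of 5.32 to 8.82, with no read of Ahsg in any pool and at most 1 read of Cps1. Another 4 passed the filter, and Apoa2 (2.34 to 4.06 FPKM) and Apoh (0.927 to 2.65 FPKM) were at levels like those of Lbp and Hp. The pools overlapped for all 7, and the part of these cells in the values of the acute phase genes was not tested. The sum of 8 endothelial markers was 67.0 and 84.1 across WT pools, against 80.5 and 96.7 across KO pools, and 4 of the 8 (Kdr, Tie1, Tek and Flt1) were higher in both KO pools (50%, against 19.7% of all tested genes). Flt1 had the largest log2 fold change of the 8, at 0.50 (adjusted p = 0.757, limma), and the part of these cells in the values of the 10 genes was not tested. That of 10 nephron markers, most of it Umod and Slc34a1, was 2697 and 1988 FPKM in WT and 2153 and 2064 FPKM in KO. The proximal tubule genes Lrp2 (99.9 and 91.0 FPKM in WT, 70.4 and 76.3 in KO), Slc5a2 (114 and 95.3 in WT, 56.9 and 77.1 in KO) and Slc34a1 (898 and 689 in WT, 365 and 609 in KO) were lower in both KO pools, as were Il6st, Osmr, Cebpd and Lbp. These 3 made up 30% of the nephron markers, against 18.1% of all tested genes, and the other 7 overlapped. The adjusted p-values of Lrp2, Slc5a2 and Slc34a1 lay between 0.785 and 0.797 (limma), and their part in the values of the 10 genes was not tested. None of the 5 T cell markers passed the filter. Their sum was 0.701 and 1.19 FPKM in WT and 0.150 and 0.292 FPKM in KO, and 4 of them (Cd3d, Cd3g, Cd4 and Cd8a) were lower in both KO pools, at 0 to 33 reads. Over tested genes this was so for 18.1%, but that share covers no gene under the filter, so the count has no like background. The part of T cells in the values of the 10 genes was not tested. The 6 adipocyte markers summed to 1.43 and 0.385 FPKM in WT and 8.27 and 3.19 FPKM in KO, most of it Cidec. The sum of 8 injured tubule markers, most of it Spp1 and with Lcn2 among them, was 8120 and 9192 across WT pools, against 10298 and 7907 across KO pools. Of these 8 markers, 3 (Havcr1, Vcam1 and Clu) were highest in WT replicate 2 and lowest in KO replicate 2 (37.5%, against 11.1% of all tested genes). Another 2 (Lcn2 and Krt20) were higher in both KO pools (25%, against 19.7% of all tested genes), and 1 (Vcam1) was lower in both (12.5%, against 18.1%). Havcr1, kidney injury molecule 1, had 210 and 393 FPKM across WT pools, against 249 and 105 FPKM across KO pools, and the keratin Krt20 had 35.6 and 36.8 FPKM, against 60.0 and 61.0 FPKM (log2 fold change 0.73, adjusted p = 0.545, limma), while the adhesion molecule Vcam1 had 14.6 and 31.0 FPKM, against 10.5 and 2.59 FPKM (log2 fold change -1.91, adjusted p = 0.785, limma). These 3 were chosen after their values were seen. The part of tubular injury in the values of the 10 genes was not tested.

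**Figure D4:**
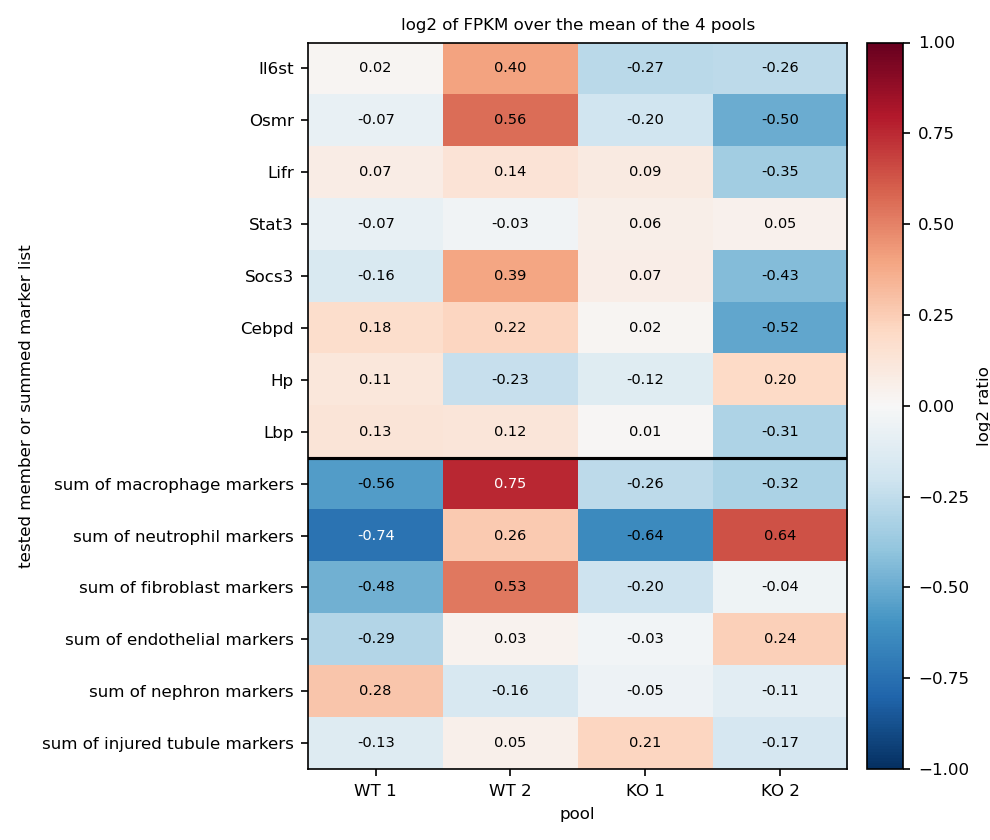
Log2 of the FPKM over the mean of the 4 pools (colour and printed value) for the 8 tested genes (above the line) and for summed marker lists (below it), with 1 column per pool. Osmr (0.56), Il6st (0.40) and Socs3 (0.39) are highest in WT replicate 2, as are the macrophage (0.75) and fibroblast (0.53) sums, and Cebpd (-0.52), Osmr (-0.50) and Socs3 (-0.43) are lowest in KO replicate 2.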

How the data were processed

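Kidney RNA of 4 pools was sequenced after poly-A selection, and the authors deposited their gene-level FPKM as a single table. The submitters' processing notes name HISAT2 2.0.5 and the builds mm10 and GRCm38.p6, and the counting tool is not given in the sources used here. All 10 genes had the same coordinates in GENCODE M21. In each library, 100% of nonzero FPKM, multiplied by gene length, were whole multiples of a fixed step (tolerance 0.01 of a read). Reads and the scaling totals were recovered from this step. The voom fit used these totals as library sizes, and no fit used the reads on genes instead. The deposited FPKM were kept on the scale the authors gave them, converted to log2(FPKM + 0.5) and compared with limma 3.58.1 in R 4.3.3 for 15414 genes whose mean reached 0.5 FPKM (eBayes with trend, no covariates, two-sided, Benjamini-Hochberg adjustment over all genes tested, threshold 0.05). Fold changes on this scale understate those of low genes. P-values set the difference between groups against the spread between pools, which eBayes moderates with the trend over all genes. With 3 reads or fewer in a library, a gene was treated as barely detectable. The fits were tested on simulated reads, in which many of the genes made to change did not pass the threshold. Counts, sequences and figures were made with Python 3.11.15, pandas 2.3.3, scipy 1.17.1 and matplotlib 3.10.9.

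The 10 genes and all lists were chosen with earlier results of these data known. A receptor chain of the lists is not reported here and was left out of the counts and medians of the lists. Named besides the 10 were pathway genes with an unadjusted p under 0.05, the highest gene of each list, those under the filter, and markers that moved with a gene. Il6ra, Ctf1, Saa1, C3, Cp, Fga, Fgb and Fgg were named outside this rule, after their values were seen. The marker Apoh also fell outside it. The markers Havcr1, Krt20 and Vcam1 were likewise chosen after their values were seen. As alternatives, the pseudocount was set to 0.1 or 1, the filter was dropped or raised to 1 FPKM, and quantile normalization, voom weights on the recovered reads, the replicate number as a block, and leaving out each pool in turn were tried.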

Additional observations from a re-analysis of the deposited data

How the results depend on the processing

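No gene of the table, and none of the 8 tested genes, passed the threshold (0 in each case) with a pseudocount of 0.1 or 1, without the filter, with a filter of 1 FPKM, or under quantile normalization, voom weights or the replicate block. Since the deleted gene Apela did not pass either, this count of 0 says nothing about stability. Unadjusted p-values under 0.05 (limma) numbered 845 to 1538 in these fits. All 56 values of the 8 genes kept their direction, although neither the filters nor the block can alter a fold change. With a pool left out, the lone pool of a group was assumed to vary like the other group, and the count past the threshold was again 0. The choice of pools mattered more. The median log2 fold change of the 8 genes ranged from -0.44 without KO replicate 1 to -0.074 without KO replicate 2. The genes without overlap numbered 8 without WT replicate 1 or KO replicate 1, and 5 without WT replicate 2 or KO replicate 2. Fewer pools make overlap less likely by construction, and the 37.8% of all tested genes holds for 4 pools only. The share with a pool left out is not given here, so nothing is read from these counts. Hp ranged from -0.055 to 0.21, changing sign in 2 of its 4 values, and the cause was not tested. The adjusted p-values of the 8 genes ranged from 0.338 to 0.998 over all settings (limma). The pools share replicate numbers only, and the correlation across genes between the deviations of same-numbered pools was -0.0017. With 2 pools per group, this value cannot tell whether same-numbered pools were handled together. The replicate block gave 932 genes at an unadjusted p under 0.05 and 0 past the threshold, 5 of the 8 genes without overlap and a median of -0.26. Depth limits Orm1 and Saa3, with at most 8 reads per pool.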
